A study of Mus musculus with 10 samples.

Results

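The comparison set the autosomal H3K27me3 peaks of WT CD71+Ter119-/lo pro-erythroblasts against those of Mtf2-null pro-erythroblasts, to find which regions and genes carried a called peak in 1 genotype only or in both. Members were chosen by genotype, antibody and sorted fraction alone: all peaks on the 19 autosomes in the 2 H3K27me3 lists of that fraction, 4695 from WT and 1331 from Mtf2-null cells, 6026 of the 50907 peaks in the 6 lists of the series. Both groups were fetal liver cells of E14.5 mouse embryos on a C57Bl/6 background, sorted for the transferrin receptor CD71 and for little or no Ter119, and 500000 cells went into each immunoprecipitation. The Mtf2-null group (Pcl2 -/- in the labels, Pcl2 being another name of Mtf2) carried a constitutive, gene-targeted Mtf2 deletion, so every tissue of the embryo lacked the protein, and its line was founded from targeted embryonic stem cells. Each genotype had 1 H3K27me3 library and 1 IgG control library. The differences therefore have no replicate check, and no test between genotypes was possible.

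H3K27me3, trimethylation of lysine 27 of histone H3, is the mark placed by Polycomb repressive complex 2 (PRC2), whose catalytic subunit is Ezh1 or Ezh2 with Suz12 and Eed as core partners. Mtf2 (Pcl2) is an accessory subunit that binds unmethylated CpG-rich DNA and helps to bring PRC2 to CpG islands, the promoters of many developmental regulators that are silent in the tissue at hand. Pro-erythroblasts are the first recognisable precursors committed to the red cell lineage, before globin accumulates and the nucleus condenses.

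The depth of the libraries was unequal, and it ran against the number of peaks. The WT H3K27me3 library held 18945784 unique tags and the Mtf2-null library 37026535, 1.95 times as many. The matching IgG libraries held 16898992 and 39667267 unique tags, which were 75.5% and 42.3% of all their tags. A tag is 1 aligned read start, and a peak is a window in which MACS counted more tags than expected from the IgG library at a p-value cutoff of 1e-05. The weakest peak called held 16 tags in WT and 24 in Mtf2-null cells, or 0.845 and 0.648 tags per 1000000 unique tags. Called peaks held 0.667% of the unique tags of the WT library and 0.116% of those of the Mtf2-null library. The false discovery rate given with the peaks, from calling IgG against ChIP, had a median of 11.2% in WT and was 100% for each of the 1331 Mtf2-null peaks. Whether the call would stand at equal depth, or against an IgG library of equal depth, was not tested. A peak in 1 list only means that a call was made there and not in the other library; it does not measure the absence of the mark.

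The sequences below are examples of 3 kinds of region, while most WT-only peaks (61.3%) lay in repeated sequence, described further below. The first sequence lies near a start site, in a CpG-rich peak called in WT only. The next 2 are CpG-rich sequence called in both genotypes. The last 2 hold a run of CA dinucleotides and were called in Mtf2-null cells only. All are from the NCBIM37 (mm9) assembly, plus strand, 200 bases each and outside the annotated exons of protein-coding genes. In the first 3, capitals mark each CG. In the last 2, capitals mark runs of at least 4 CA or TG units.
WT only, inside BC061194, 0.345 kb downstream of its start site, chr2:18620956-18621155: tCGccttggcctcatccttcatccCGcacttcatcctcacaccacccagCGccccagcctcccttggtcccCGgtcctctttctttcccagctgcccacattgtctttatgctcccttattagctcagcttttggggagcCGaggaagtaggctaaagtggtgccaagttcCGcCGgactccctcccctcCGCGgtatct
Both genotypes, Mnx1 intron, chr5:29800829-29801028: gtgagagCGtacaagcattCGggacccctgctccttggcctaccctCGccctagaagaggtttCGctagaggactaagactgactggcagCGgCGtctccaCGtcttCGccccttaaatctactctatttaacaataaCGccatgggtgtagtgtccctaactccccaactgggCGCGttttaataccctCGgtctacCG
Both genotypes, Plekhh1 promoter, chr12:80129932-80130131: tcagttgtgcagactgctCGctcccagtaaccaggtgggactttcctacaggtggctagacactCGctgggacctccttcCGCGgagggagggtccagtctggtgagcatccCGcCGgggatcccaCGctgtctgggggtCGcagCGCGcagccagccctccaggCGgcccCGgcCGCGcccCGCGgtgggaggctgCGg
Mtf2-null only, intergenic, 9.59 kb upstream of Prex1, chr2:166548819-166549018: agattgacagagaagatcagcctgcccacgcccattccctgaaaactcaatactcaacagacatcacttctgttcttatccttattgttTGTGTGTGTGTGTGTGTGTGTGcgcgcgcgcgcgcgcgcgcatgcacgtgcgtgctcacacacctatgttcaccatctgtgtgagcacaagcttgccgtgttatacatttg
Mtf2-null only, Synj2 intron, chr17:5949681-5949880: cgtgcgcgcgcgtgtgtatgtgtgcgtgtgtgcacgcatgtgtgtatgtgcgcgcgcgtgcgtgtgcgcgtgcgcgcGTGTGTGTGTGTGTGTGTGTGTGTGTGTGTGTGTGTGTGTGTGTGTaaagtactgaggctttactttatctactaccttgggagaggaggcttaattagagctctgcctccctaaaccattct
The Plekhh1 stretch held 17 CG in 200 bases, the Mnx1 stretch 13 and the BC061194 stretch 9. The alternating CG runs beside the Prex1 and Synj2 repeats also raised their count, to 13 and 17.

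Nearly all peaks were called in 1 genotype only. In WT, 4680 of 4695 peaks (99.7%, with a 95% Wilson interval from 99.5 to 99.8) were free of any overlapping Mtf2-null peak, and of the 1331 Mtf2-null peaks 1316 (98.9%, 98.1 to 99.3) had no overlapping WT peak. Intervals here and below cover counting error only. Only 15 WT peaks and 15 Mtf2-null peaks shared at least 1 base. The WT list covered 4.44 Mb of the autosomes and the Mtf2-null list 1.12 Mb. The Mtf2-null list was thus 0.283 times as long by number and 0.252 times by bases.

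Peaks were short and weak in both genotypes. The median peak measured 815 bp with 22 tags and 9.14-fold enrichment over IgG in WT, and 753 bp with 29 tags and 7.14-fold enrichment in Mtf2-null cells. Scaled to depth and length, the median was 1.42 tags per 1000000 per kb in WT and 1.02 in Mtf2-null peaks. The interquartile range of the WT peaks, 1.33 to 1.55, lay above that of the Mtf2-null peaks, 0.984 to 1.07. The calling threshold fell at a different density in each library, so this gap holds for called peaks and not for all regions.

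**Figure D1:**
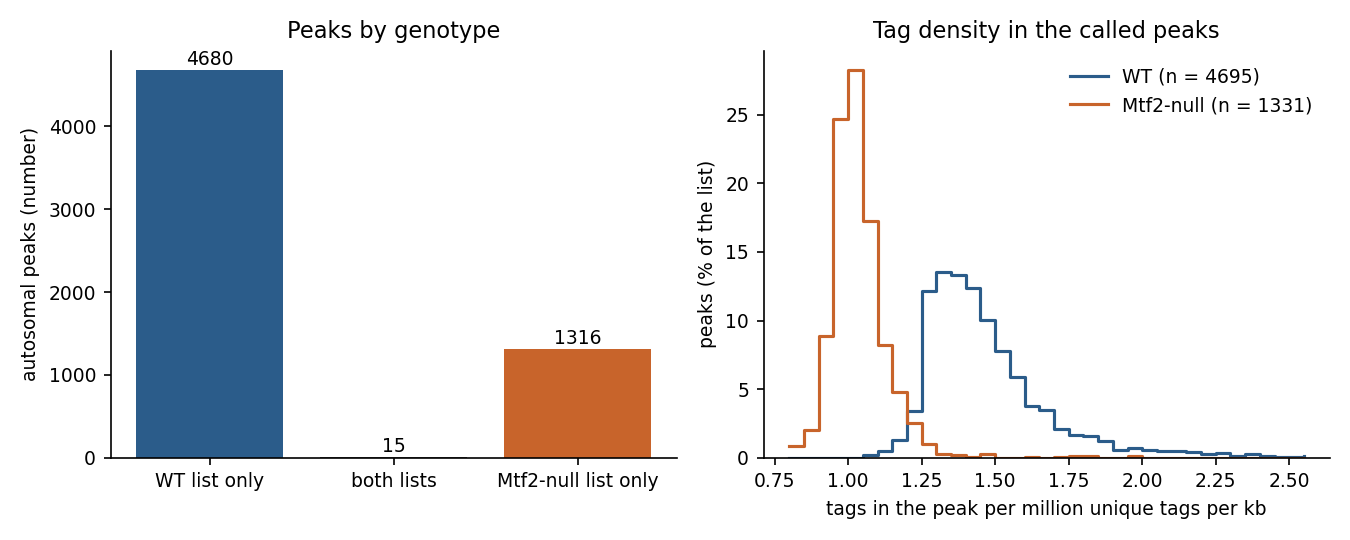
Left, bars give the number of autosomal H3K27me3 peaks found in the WT list only (4680), in both (15) and in the Mtf2-null list only (1316). Right, the 2 lines give the share of each list (vertical, %) by tags in the peak per 1000000 unique tags per kb (horizontal, 37 WT peaks above 2.6 not drawn), and the Mtf2-null peaks lie at lower density than the WT peaks.

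The 15 regions called in both genotypes were the only ones in which both libraries gave a value for the same peak. In each of the 15 pairs the tag density was lower in Mtf2-null than in WT cells, with a median ratio of 0.726 and a range from 0.577 to 0.986. Densities ran from 1.24 to 1.86 tags per 1000000 per kb in WT and from 0.907 to 1.22 in Mtf2-null cells, so the 2 ranges did not overlap. Fold enrichment over IgG was lower in Mtf2-null cells in 14 of the 15 pairs, and the exception was Plekhh1. The 15 pairs were not a sample of all regions, because each had to pass both thresholds, and the lower density in Mtf2-null cells was shared by that library's peaks in general.

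Several of these regions lay at developmental regulators. Pou3f1, a POU-homeobox factor of Schwann cells and neurons, held 16 tags (7.31-fold) in WT and 31 tags (5.47-fold) in Mtf2-null cells, at densities of 1.27 and 0.938. Mnx1, the motor neuron homeobox factor, held 17 tags (9.14-fold) and 26 tags (6.38-fold), at densities of 1.34 and 1.03. Gdf6, a BMP-family ligand, held 20 tags (13.7-fold) and 28 tags (8.20-fold) in the overlapping pair. Sox6, which acts in definitive erythroid maturation and in globin silencing, held 21 tags (7.62-fold) and 25 tags (5.47-fold), but these peaks shared only 61 bases.

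The other pairs were at genes of more varied function. Plekhh1, whose shared sequence is printed above, held 18 tags (7.15-fold) in WT and 24 tags (10.0-fold) in Mtf2-null cells, with the WT summit 19 bases upstream of the start site. Efna2, an ephrin ligand in axon guidance, held 19 tags (16.4-fold) and 29 tags (9.12-fold). Sec61a1, a subunit of the endoplasmic reticulum translocon, was the nearest gene of the pair whose densities differed least, 1.24 and 1.22, which lay in an intron of Kbtbd12, 36.0 kb from the Sec61a1 start site. Thumpd2 was the nearest gene of the densest WT member, 1.86 against 1.08 tags per 1000000 per kb. The remaining pairs were nearest to Slc41a2, E130309D14Rik, Rps6kl1, Gp1bb, Pcdhgc5, Ahdc1 and Zfp644.

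**Figure D2:**
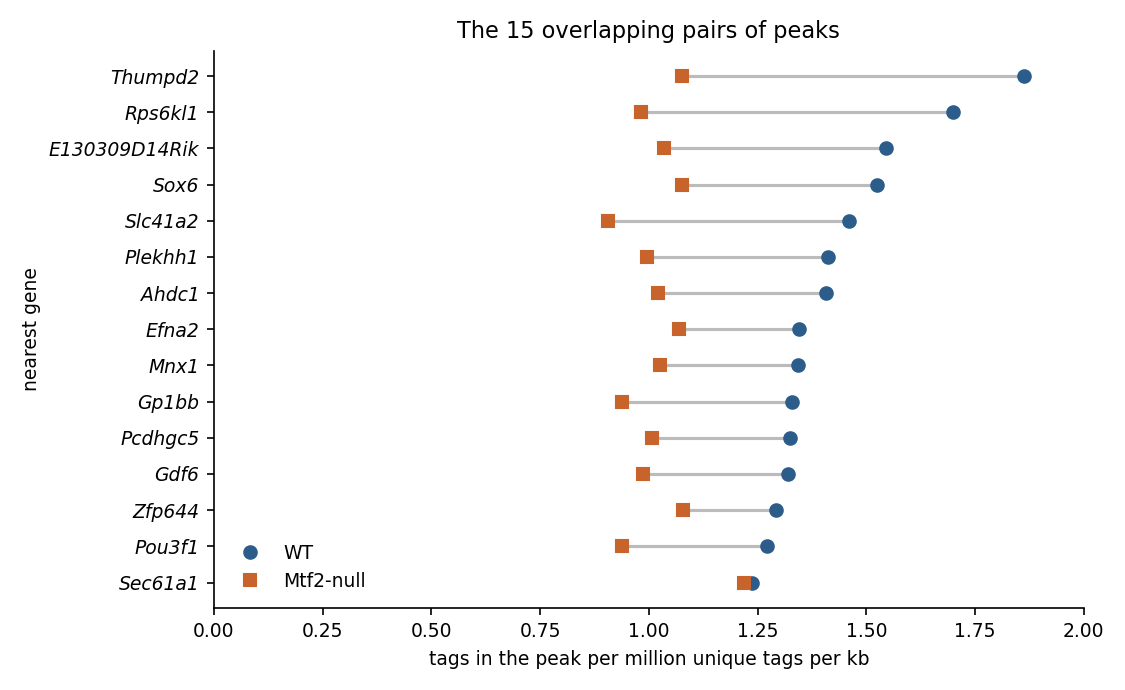
Each row is 1 of the 15 overlapping pairs, named by the nearest gene, with the density of the WT peak (circle) and of the Mtf2-null peak (square) in tags per 1000000 unique tags per kb. Each square lies to the left of its circle, and the Sec61a1 pair is the closest.

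The 15 shared regions lay near start sites more often than the WT-only peaks taken as a whole. The WT summit was within 5 kb of a protein-coding start site in 8 of 15 (53.3%, 30.1 to 75.2), against 669 of the 4680 WT-only peaks (14.3%, 13.3 to 15.3). None of the 15 was in repeated sequence, as defined below. Of the 1810 WT-only peaks outside repeated sequence, 30.4% lay that near, a share within the interval of the 15. Summit windows of 1 kb were CpG island-like in 4 of the 15 WT peaks, where CpG island-like means a GC content of 50% or more and at least 0.6 times the CpG count that base composition predicts. The same held for 206 of the WT-only peaks (4.40%, 3.85 to 5.03) and for 8.23% of those outside repeated sequence. No peak of WT Mtf2 in this fraction or in CD71+Ter119+ cells overlapped any of the 15, and a count of 0 in 15 allows up to 20%. By contrast, 5 of the 15 (33.3%, 15.2 to 58.3) overlapped an H3K27me3 peak of WT CD71+Ter119+ cells, a later erythroid stage measured in other libraries. The share was 6.05% of WT-only peaks, 15.2% of those outside repeated sequence and 32.7% of those within 5 kb of a start site.

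WT summits were intergenic more often, and intronic less often, than Mtf2-null summits. In the WT list, 66.2% of summits were intergenic (64.8 to 67.5) and 22.2% intronic (21.0 to 23.4), whereas in the Mtf2-null list 54.8% were intergenic (52.2 to 57.5) and 32.2% intronic (29.7 to 34.7). Positions placed every 100 kb along the autosomes, 23921 in all, were intergenic in 56.7% and intronic in 32.6%, close to the Mtf2-null list. Summits within 1 kb of a start site made up 4.77% of the WT list (4.20 to 5.42), 3.68% of the Mtf2-null list (2.80 to 4.83) and 3.27% of the regular positions. Among the 1331 highest-scoring WT peaks the share was 3.31%, below that of the Mtf2-null list. The median distance to the nearest start site was 46.6 kb in WT, 24.7 kb in Mtf2-null cells and 48.5 kb for the regular positions. More than 100 kb from any start site lay 35.0% of WT summits, 20.1% of Mtf2-null summits and 35.7% of the regular positions.

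**Figure D3:**
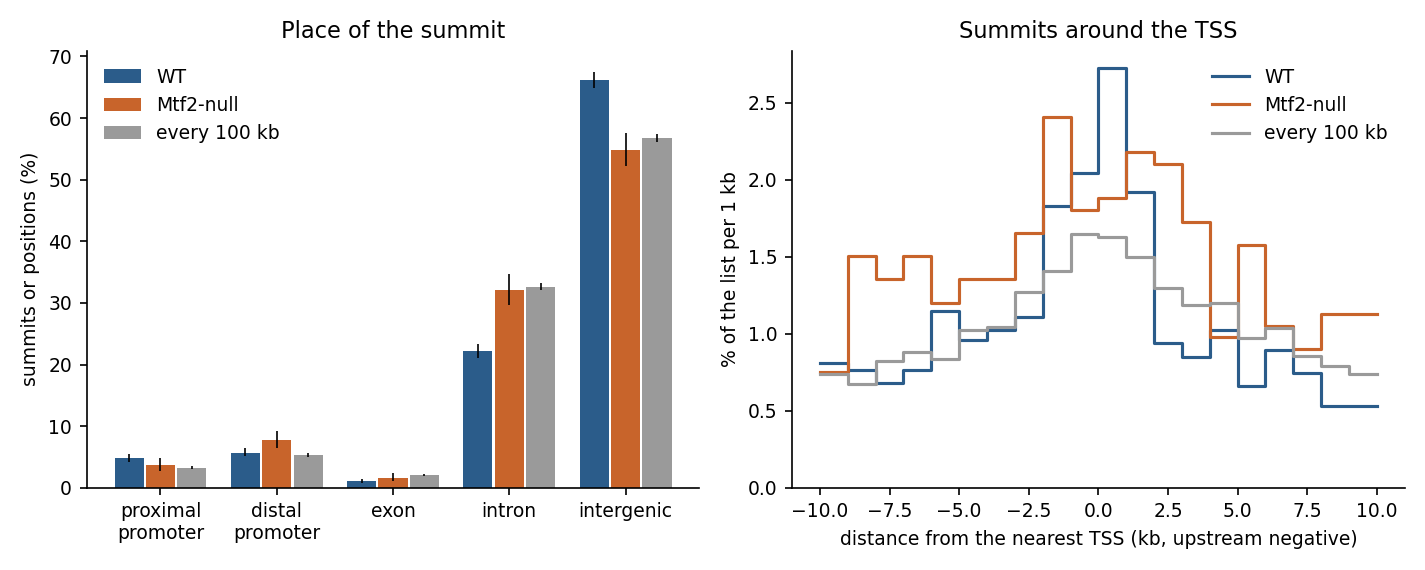
Left, bars give the share of summits (%, with 95% Wilson intervals) in 5 kinds of place for WT peaks, Mtf2-null peaks and positions taken every 100 kb. Right, lines give the share of each list per 1 kb of distance from the nearest start site, and the WT line is highest in the first kb downstream (2.73%), while the Mtf2-null line is highest between 1 and 2 kb upstream.

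To describe the sequence itself, each 1 kb summit window was split into words of 16 bases and each word was counted over the whole genome. A window was called repeated when at least 50% of its words occurred at least 100 times. Repeated windows made up 61.3% of WT-only peaks (59.9 to 62.7) and 12.9% of Mtf2-null-only peaks (11.2 to 14.8), against 8.96% of the regular positions. None of the 15 shared regions was repeated in either list. No annotation of repeat families was used, and the sources used here do not state how reads with several equally good positions were treated, so their part in these peaks was not tested.

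The repeated windows in WT were mostly those that also carried a Mtf2 peak. Of the 4680 WT-only peaks, 2716 (58.0%, 56.6 to 59.4) overlapped a Mtf2 peak of the same WT fraction, a list that covers 2.02% of autosomal bases. Of the 1316 Mtf2-null-only peaks, 19 did (1.44%, 0.926 to 2.24). Among WT-only peaks with Mtf2, 87.8% (86.6 to 89.0) were repeated, and among those without Mtf2, 24.6% (22.8 to 26.6). With repeated windows left out, 18.2% of WT-only peaks overlapped a Mtf2 peak. WT H3K27me3 and WT Mtf2 were called against the same IgG library, and 77.8% of Mtf2 peaks in this fraction were repeated. The part of the shared control in the overlap was not tested.

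For each list, 3 groups of windows with sequence in common were built, and they made up 34.7% of the WT list and 14.6% of the Mtf2-null list. The largest group, 736 WT windows that share at least 50 repeated words with the window of 1 WT peak at chr1:26527547-26528855, took 15.7% of the list. No Mtf2-null window belonged to it, which allows up to 0.225% of that list, and 33 of the 23921 regular positions did (0.138%). Mtf2 peaks overlapped 730 of the 736. The second group, around chr4:47080070-47081159, held 533 WT windows (11.4%), 14 Mtf2-null windows (1.05%) and 201 regular positions (0.840%), and Mtf2 peaks overlapped 357 of the 533 (67.0%). The third, around chr5:23232316-23233849, held 361 WT windows (7.69%), 0 Mtf2-null windows and 38 regular positions (0.159%), and Mtf2 peaks overlapped 355 of the 361. Each group was built around the window with the most similar windows in the WT list itself. Its larger share of that list than of the other sets was thus partly fixed by that choice.

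The largest group built in the same way from the Mtf2-null list, around chr1:83316190-83317144, was also common in the other sets. It took 113 Mtf2-null windows (8.49%), 279 WT windows (5.94%) and 977 regular positions (4.08%), and Mtf2 peaks overlapped 4 of the 113. The second, around chr4:106508126-106508886, took 53 Mtf2-null windows (3.98%), 43 WT windows (0.916%) and 423 regular positions (1.77%). The third, around chr13:67658098-67659409, took 28 Mtf2-null windows (2.10%), 46 WT windows (0.980%) and 96 regular positions (0.401%). Mtf2 peaks overlapped 1 window of each of these 2 groups.

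A dinucleotide repeat also stood out in the Mtf2-null list. The 16-letter word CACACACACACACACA or its reverse complement was present in 403 of 1316 Mtf2-null-only windows (30.6%, 28.2 to 33.2). It was present in 183 of 4680 WT-only windows (3.91%, 3.39 to 4.50) and in 10.6% of the regular positions, so the Mtf2-null list lay above and the WT list below the genome. Among WT-only windows it was present in 0.941% of the repeated ones and in 8.62% (7.41 to 10.0) of the others. In Mtf2-null-only windows, the share was 27.6% within 5 kb of a start site and 31.3% farther away. Among the 15 shared pairs, 5 held the word in at least 1 of their windows. In CD71+Ter119+ cells, 11.9% of WT and 5.15% of Mtf2-null H3K27me3 windows held it. The IgG library of Mtf2-null CD71+Ter119-/lo cells had the lowest share of unique tags among the 4 libraries compared, 42.3%, and whether this bears on the repeat was not tested.

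**Figure D4:**
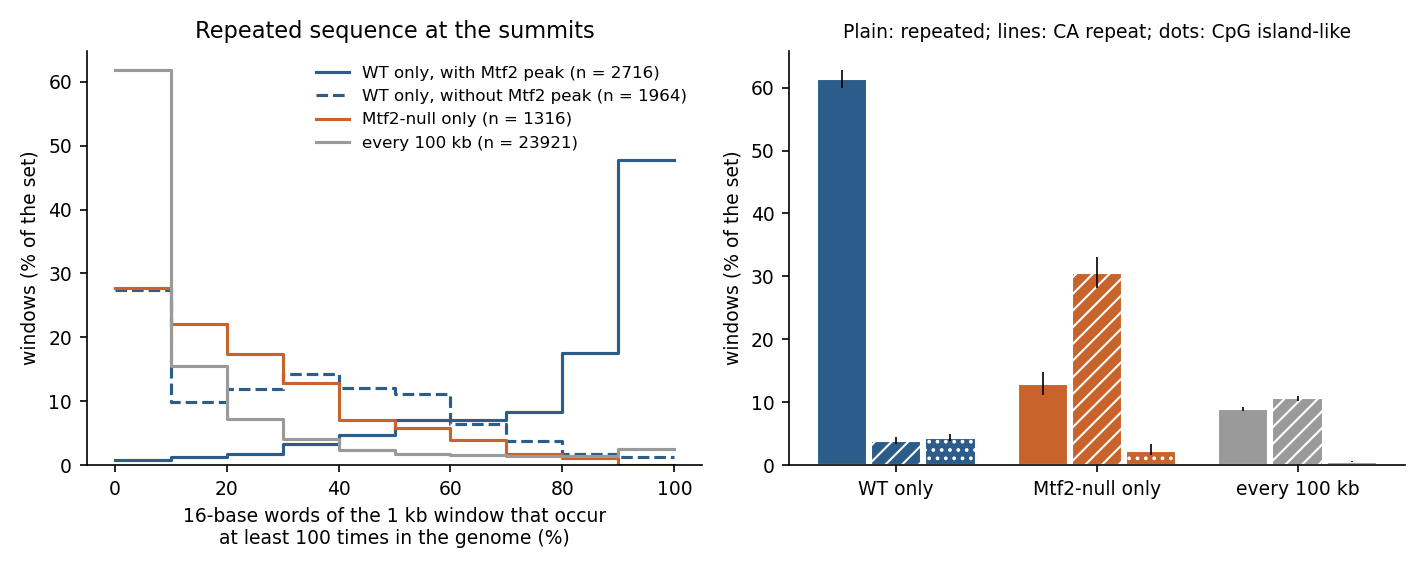
Left, lines give the share of windows (vertical, %) by the percent of their 16-base words that occur at least 100 times in the genome (horizontal) for WT-only peaks with and without a Mtf2 peak, Mtf2-null-only peaks and positions every 100 kb. Right, bars with 95% Wilson intervals give the share of windows that are repeated (61.3% WT only, 12.9% Mtf2-null only), hold a CA repeat (3.91% and 30.6%) or are CpG island-like (4.40% and 2.36%).

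The fullest 1 Mb of the WT list was on chromosome 8, where 29 WT peaks fell between 126 and 127 Mb. Of these, 26 formed a run at chr8:126061309-126151056, a stretch of 89.7 kb. No Mtf2-null peak lay in the run. Of the 26 windows, 25 overlapped a Mtf2 peak and 16 an H3K27me3 peak of WT CD71+Ter119+ cells. Their tag counts ran from 17 to 76 and their fold from 5.72 to 13.9. Of the 325 pairs of windows, 300 shared at least 50 words, and the median word occurred 53 times in the genome, so the run is a local array of similar sequence with a median GC of 61.6%. None of the 26 windows counted as repeated, so the run stays in the shares given without repeated windows. The second fullest megabase, on chromosome 12 from 19 Mb, held 17 WT peaks, 14 of them repeated, and 0 Mtf2-null peaks. The fullest megabases of the Mtf2-null list held only 7 peaks each, both on chromosome 5. On each autosome the Mtf2-null list was shorter than the WT list, with ratios from 0.178 on chromosome 14 to 0.392 on chromosome 11.

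Peaks near start sites that lacked Mtf2 were of other sequence. Of the 669 WT-only peaks within 5 kb of a start site, 549 had no Mtf2 peak over them. Those 549 were repeated in 5.46% (3.85 to 7.69), CpG island-like in 22.0% (18.8 to 25.7) and had a median GC of 51.2%. Of them, 215 (39.2%, 35.2 to 43.3) overlapped an H3K27me3 peak of WT CD71+Ter119+ cells. Of the 2596 WT-only peaks that lay farther from start sites and carried Mtf2, 88.5% were repeated, 2.31% were CpG island-like and 24 (0.924%) overlapped such a peak. The 120 WT-only peaks near start sites with Mtf2 were repeated in 73.3% and CpG island-like in 2.5%. The 1415 farther away without Mtf2 were repeated in 32.1% and CpG island-like in 1.55%. Repeated sequence thus went with Mtf2 overlap on both sides of the 5 kb limit. Mtf2-null-only peaks near start sites were CpG island-like in 6.22% (3.74 to 10.2), and 23 of 225 (10.2%, 6.91 to 14.9) overlapped a WT CD71+Ter119+ peak.

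A gene was counted when a peak overlapped the window from 5 kb before to 5 kb after any of its protein-coding start sites. Of 21418 autosomal protein-coding genes, 725 had a WT peak (3.39%), 270 a Mtf2-null peak (1.26%) and 39 both (0.182%). In all, 686 genes (3.20%) were called in WT only and 231 (1.08%) in Mtf2-null cells only. Thus 94.6% of the WT genes (92.7 to 96.0) had no Mtf2-null peak, and 14.4% of the Mtf2-null genes (10.7 to 19.1) had a WT peak. Neighbouring genes can share a peak: the 39 genes stood for 35 WT and 34 Mtf2-null peaks. The 2 peaks overlapped at 9 of the 39 genes and lay at different places at the other 30. When the WT list was cut to the 1331 peaks of highest score, 173 genes were called in WT only, 258 in Mtf2-null cells only and 12 in both.

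H3K27me3 in CD71+Ter119+ cells, which was measured in other libraries and did not enter the choice of genes, was found at unequal shares of the 3 groups of genes. A WT CD71+Ter119+ peak lay in the same windows at 29 of the 39 genes called in both genotypes (74.4%, 58.9 to 85.4), at 343 of the 686 called in WT only (50%, 46.3 to 53.7) and at 57 of the 231 called in Mtf2-null cells only (24.7%, 19.6 to 30.6). Over all genes the share was 12%. A CpG island-like start site was present at 82.1% of the genes called in both (67.3 to 91.0), 63.8% of those in WT only, 58.0% of those in Mtf2-null cells only and 49.8% of all genes. Mtf2 peaks of the same fraction reached the window at 17.9%, 24.3% and 8.23% of these groups and at 8.34% of all genes. The Mtf2-null CD71+Ter119+ list reached 0 of the 39 genes (up to 8.97%) and 1.59% of all genes. It reached 2.04% of the WT-only genes (1.22 to 3.40) and 3.90% of the Mtf2-null-only genes (2.06 to 7.24).

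Developmental transcription factors carried WT peaks more often than genes at large. Of 327 genes in 9 families, 59 had a WT peak (18.0%, against 3.39% of all genes) and 15 a Mtf2-null peak (4.59%, against 1.26%). Among genes with a CpG island-like start site, the shares were 50 of 240 factors (20.8%) against 4.40% of all such genes in WT, and 13 of 240 (5.42%) against 1.56% in Mtf2-null cells. Of the 59, 51 were called in WT only and 8 in both: Lhx1, Lhx6, Pax9, Mnx1, Pou3f1, Sox6, Gata6 and Hes5. Only 7 were called in Mtf2-null cells only. Leaving out peaks in repeated sequence left both counts at 59 and 15. With the WT list cut to its 1331 highest scores, the length of the Mtf2-null list, only 8 factors had a WT peak against 15 with a Mtf2-null peak, so the order of the genotypes in this class rests on the lower-scoring WT peaks.

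LIM-homeobox genes, which set neuronal and organ identity, were marked most often. A WT peak lay at 8 of the 12 (66.7%, 39.1 to 86.2) and a Mtf2-null peak at 2 (16.7%, 4.70 to 44.8). Isl2, a motor neuron factor, had the highest WT score of the class, 114 on the scale of -10 times the log10 of the p-value, with 39 tags at 12.8-fold enrichment and its summit 0.782 kb downstream of the start site. Lhx2 (21 tags, 8.17-fold), Lhx4, Lhx5, Lhx8 and Lhx9 were likewise called in WT only. At Lhx1 the WT peak held 24 tags (9.14-fold) 0.63 kb upstream of the start site and the Mtf2-null peak 24 tags (6.38-fold) 1.63 kb downstream of it. At Lhx6 the WT peak held 21 tags (11.0-fold) and the Mtf2-null peak 28 tags (7.29-fold), with 6.40 kb between them.

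Of 110 other homeobox genes in the list, 23 had a WT peak (20.9%, 14.4 to 29.4, against 3.39% of all genes). A Mtf2-null peak lay at 5 (4.55%, 1.96 to 10.2, against 1.26%). Pou6f1 (24 tags, 9.14-fold), Onecut3, Dlx3 and Bsx led the WT-only members, while Dlx2, Nkx2-5 and Pou2f1 were called in Mtf2-null cells only. Of 33 Sox and T-box genes, 10 had a WT peak (30.3%, 17.4 to 47.3) and 2 a Mtf2-null peak (6.06%, 1.68 to 19.6). Tbx2 (28 tags, 9.14-fold) and Tbx4 (19 tags, 9.14-fold), factors of heart and limb, had 2 WT peaks each and no Mtf2-null peak. Eomes, a T-box factor of mesoderm, had a Mtf2-null peak alone (25 tags, 12.8-fold). Forkhead genes, led by Foxl2 (24 tags, 11.0-fold), had WT peaks at 5 of 40 (12.5%, 5.46 to 26.1). Mtf2-null peaks lay at 0 of 40, which allows up to 8.76%. Hox cluster genes had 2 of 40 in each genotype, with no gene in common. Their share, 5% (1.38 to 16.5), had an interval that includes the 3.39% and the 1.26% of all genes. Zic, Gli and Klf genes had none of 27 in either (up to 12.5%).

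Among 5 autosomal Gata genes, 3 had a WT peak (60%, 23.1 to 88.2, against 3.39% of all genes). Gata2, a factor of blood stem and progenitor cells that is switched off as erythroid cells mature, had 17 WT tags (7.31-fold) 2.25 kb downstream of a start site and no Mtf2-null peak within 5 kb, the nearest lying 12.3 kb from the gene. Gata4, a heart and endoderm factor, had 2 WT peaks. Gata6 had a WT peak of 18 tags (11.0-fold) and a Mtf2-null peak of 27 tags (6.38-fold) at separate places 5.10 kb apart. Tissue-specifying bHLH genes had WT peaks at 6 of 51 (11.8%, 5.51 to 23.4). Mtf2-null peaks lay at 2 (3.92%, 1.08 to 13.2), an interval that includes the 1.26% of all genes. Hes5, a Notch target, was called in both genotypes, with 18 tags (7.31-fold) in WT and 40 tags (7.29-fold) in Mtf2-null cells, and its window also takes in the neighbouring start site of Pank4. Hmx2 and Lbx1, homeobox genes outside the class lists, were also called in both.

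Among signalling genes, Fgf and hedgehog genes had WT peaks at 7 of 34 (20.6%, 10.3 to 36.8, against 3.39% of all genes) and Mtf2-null peaks at 0 (up to 10.2%, against 1.26%). Fgf8, a morphogen of limb and brain, had 4 WT peaks in its window, the most of any gene, the strongest with 24 tags (11.0-fold). Genes with 3 WT peaks were Hand1, Vax2, Dnajc22, Sbk1 and Hmox2, and no gene had 3 Mtf2-null peaks. BMP and TGF-beta genes had WT peaks at 5 of 62 (8.06%, 3.49 to 17.5) and Mtf2-null peaks at 2 (3.23%, 0.889 to 11.0). Lefty2, a nodal antagonist, was called in Mtf2-null cells only (35 tags, 4.93-fold). Notch and Delta genes had WT peaks at Dll3 and Jag1, 2 of 18 (11.1%, 3.10 to 32.8), an interval that includes 3.39%. They had Mtf2-null peaks at 0 of 18 (up to 17.6%).

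Wnt genes were few. Of 19 Wnt ligands, Wnt10b alone had a WT peak, with 16 tags (11.0-fold). Of 57 Wnt receptors, antagonists and effectors, 3 had one: Kremen2, a Dkk co-receptor, with 20 tags (8.53-fold), Fzd2, a Frizzled receptor, with 20 tags (9.14-fold), and Tcf7l1, a transcriptional effector of the pathway, with 16 tags (7.31-fold). None of the 76 had a Mtf2-null peak. This allows up to 16.8% of the ligands and 6.31% of the other genes, limits that include the 1.26% of all genes. The WT shares, 5.26% of each class, stood near the 4.40% of genes with a CpG island-like start site. Ctnnb1, which encodes beta-catenin, had no peak of either list within 5 kb, the nearest WT peak lying 65.2 kb from the gene.

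Cyclin-dependent kinase inhibitors had WT peaks at 3 of 7 genes (42.9%, 15.8 to 75.0, against 3.39% of all genes). A Mtf2-null peak lay at 1 (14.3%, 2.57 to 51.3, against 1.26%). The highest-scoring WT peak of all lay beside Cdkn1a, which encodes p21: 480 tags over 8077 bp at chr17:29238121-29246197, 12.6-fold enriched, with the summit 6.14 kb downstream of the start site in intergenic sequence. It was the only WT peak with a false discovery rate at or below 5% and a Mtf2 peak overlapped it, while no Mtf2-null peak reached the window of the gene. Cdkn2b was called in WT only (16 tags, 9.14-fold). Cdkn2a had a WT peak of 20 tags (8.41-fold) overlapped by Mtf2 and a separate Mtf2-null peak of 26 tags (5.47-fold).

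Blood genes had peaks at shares whose intervals include those of all genes, 3.39% in WT and 1.26% in Mtf2-null cells. Of 37 genes of the erythroid programme, globin and heme synthesis, Ank1 and Spnb1, both of the red cell membrane skeleton, had WT peaks (5.41%, up to 17.7) and Rhd, a blood group antigen gene, a Mtf2-null peak (2.70%, up to 13.8). The Spnb1 peak (37 tags, 10.2-fold) was in repeated sequence and overlapped by Mtf2, while Ank1 had 16 tags (9.14-fold). Of 40 blood lineage transcription factors, Prdm1 had a WT peak (17 tags, 12.8-fold, 60 bases from a start site) and Etv6 a Mtf2-null peak (35 tags, 7.49-fold). Of 38 receptors and markers of other blood lineages, Itga2b, the megakaryocyte integrin CD41, had a WT peak (37 tags, 14.6-fold, in repeated sequence) and Emr1, the macrophage antigen F4/80, a Mtf2-null peak. A list of H3K27me3 peaks does not tell active from unmarked genes, so it offers no check of the sorted cell type. It also cannot check the Mtf2 deletion: no peak of either list lay within 5 kb of an Mtf2 start site. Gata3, Cxcr4, Myb, Stat5b, Dnmt3b, Cebpa, Cdk4, Tal1, Phf1, Phf19 and Rnf2, genes of blood, cell cycle or chromatin looked at one by one, had no peak of either list within 5 kb. A Mtf2-null peak lay in the body of Fli1, a megakaryocyte and stem cell factor, but not within 5 kb of its start sites.

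**Figure D5:**
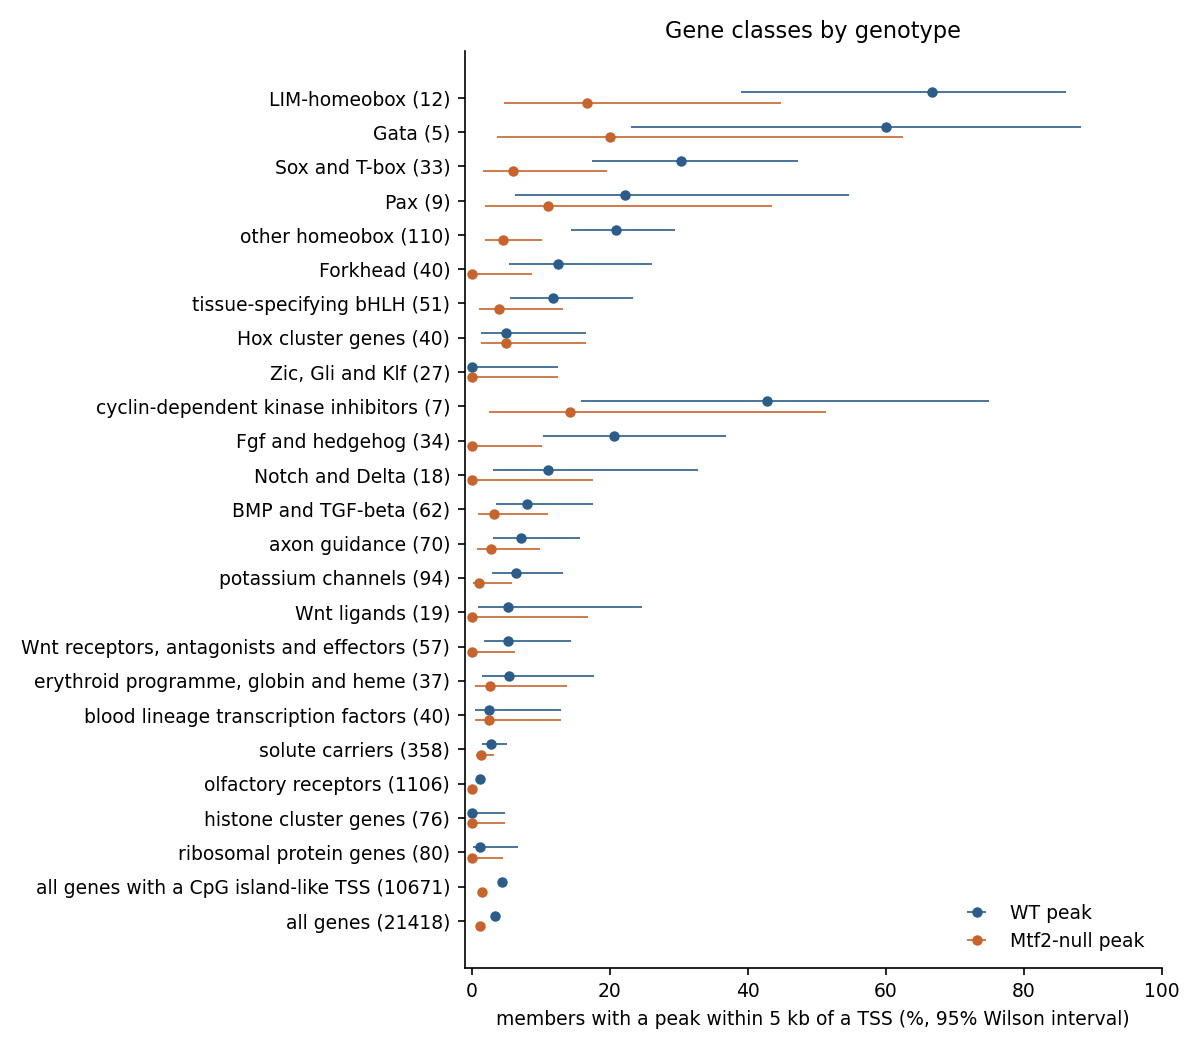
Points give the share of each gene class (number of members in brackets) with a WT peak or a Mtf2-null peak within 5 kb of a start site, with 95% Wilson intervals. LIM-homeobox, Gata and cyclin-dependent kinase inhibitor genes lie farthest to the right in WT, and the 2 bottom rows give all genes with a CpG island-like start site (4.40% and 1.56%) and all genes (3.39% and 1.26%).

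Olfactory receptors stood below the WT share of all genes, 3.39%. They had WT peaks at 13 of 1106 (1.18%, with an interval that lies below that share) and a Mtf2-null peak at 1, and Olfr1155 held the highest score of all WT-only peaks near a start site (46 tags, 18.5-fold, score 141), in repeated sequence overlapped by Mtf2. Vomeronasal and taste receptors also stood below, with 5 of 383 in WT (1.31%, 0.559 to 3.02) and 0 in Mtf2-null cells (up to 0.993%). For the families named next, the intervals included the 3.39% of all genes in WT and the 1.26% in Mtf2-null cells. Solute carriers had 10 of 358 in WT (2.79%, 1.52 to 5.06) and 5 in Mtf2-null cells, and Zfp zinc finger genes 10 of 362 (2.76%, 1.51 to 5.01) and 4. Histone cluster genes had none of 76 in either genotype. Potassium channels had 6 of 94 in WT (6.38%, 2.96 to 13.2), with Kcnk4 first (25 tags, 11.0-fold), and 1 in Mtf2-null cells (1.06%). Axon guidance genes had 5 of 70 in WT (7.14%, 3.09 to 15.7) and 2 in Mtf2-null cells.

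The strongest peaks near start sites were in repeated sequence more often in the WT list than in the Mtf2-null list. Of the 10 highest-scoring WT-only peaks within 5 kb of a start site, 7 were in repeated sequence (at Olfr1155, Rbm12, Stx18, Ethe1, Fam171a2, Spnb1 and Cdk5rap1), and Isl2, Thada and Mab21l2 were not. Of the corresponding 10 Mtf2-null-only peaks (at Elovl3, Hsf5, Plac1l, Svop, Gm20547, Galr2, Sdsl, Gm853, Cct8l1 and Sp7), none was repeated and 3 held the CA repeat, those at Galr2, Cct8l1 and Sp7. Over all peaks near start sites, 17.6% of WT-only and 6.22% of Mtf2-null-only ones were repeated. The CA repeat was in 27.6% of such Mtf2-null-only peaks, so the counts among their 10 stood near the shares of that whole set. The Elovl3 window, at 48.8% repeated words, was just below the 50% cutoff, and the Fam171a2 window, at 53.3%, just above. Elovl3, a fatty acid elongase gene, led the 10 Mtf2-null-only peaks with 46 tags (9.12-fold, score 109) 1.88 kb upstream of the start site. Sp7, the osteoblast factor osterix, had 37 tags (7.14-fold). Farther from start sites, the highest Mtf2-null score, 178, was in a CpG island-like exon of Plec, which encodes the cytolinker plectin (86 tags, 10.0-fold). The next, 44.9 kb upstream of Flrt2, had 82 tags at 36.0-fold, the highest fold of that list, in repeated sequence.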

How the data were processed

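The authors immunoprecipitated chromatin of sorted fetal liver cells, aligned reads to mm9 (Bowtie2 2.2.3 in the submitters' processing notes, a genome named as masked in the file headers) and called peaks with MACS 1.3.7 against IgG (p-value cutoff 1e-05). Per the file headers and the deposited columns, each peak has a tag count (raw), a fold enrichment ratio over IgG, a score (-10 times the log10 of the p-value) and a percent false discovery rate. Their methods state replicates, but whether reads were pooled is not given in the sources used here. No alignments were used, so uncalled regions have no value.

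Groups follow the labels. Peaks overlapped if they shared 1 base. Start sites, exons and genes came from GENCODE M1 (NCBIM37), and all peaks lay within its chromosome lengths. Location took the order proximal promoter (summit within 1 kb of a start site), distal promoter (upstream to 5 kb), exon, intron, intergenic. Base composition used 1 kb around the summit. Counts of 16-base words, on either strand, covered chromosomes 1 to 19, X and Y. Wilson intervals (95%) cover counting error. With 1 library per genotype no test was run; interval, placement and word functions were tested on simulated data. Named genes were those of all shared peaks, those with a start-site peak in both lists, the 10 highest-scoring peaks of each list near start sites and 5 elsewhere, up to 4 per class by score, fullest 1 Mb bins, genes with 3 or more peaks, Mtf2, Ctnnb1 and genes with ChIP-qPCR primers. Further class members, such as Nkx2-5 and Lhx4, were named after their values were seen. Members and lists were chosen with earlier results of these data known, the repeat measures were added on seeing the data, and 2 class patterns were narrowed to drop wrong matches. Hox genes are given as counts. Python 3 with numpy, pandas, scipy and numba was used. Alternatives are in the closing section.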

Additional observations from a re-analysis of the deposited data

Results flagged for a closer look

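The change in peak number between genotypes ran in opposite directions in the 2 sorted fractions. The Mtf2-null list held 0.283 times as many autosomal H3K27me3 peaks as the WT list in CD71+Ter119-/lo cells and 1.15 times as many in CD71+Ter119+ cells. With 1 library per genotype and fraction, this difference was not tested. The Mtf2-null CD71+Ter119+ peaks were in repeated sequence in 76.8% and CpG island-like in 0 of 5129, against 4.08% and 47.5% of the WT peaks of that fraction.

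Chromosome X was left out of the comparisons of the report and entered only where they were recomputed over all chromosomes. It held 285 WT and 76 Mtf2-null peaks of CD71+Ter119-/lo cells, and the labels used here do not give the sex of the embryos.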

How the results depend on the processing

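Of 88 values recomputed under another choice, 37 stayed within their counting interval or within 1.5 times and 51 moved. At a score of at least 100, the Mtf2-null list was 0.0796 times as long as the WT list, 100% of WT peaks were WT only, and genes called in WT only, Mtf2-null only and both were 26, 1 and 0 (developmental factors 1 and 0). Only 201 WT and 16 Mtf2-null peaks were left, so the Mtf2-null shares rest on very few peaks. Proximal promoters then took 1.49% of the WT peaks and 0 of 16 Mtf2-null peaks. CpG island-like windows took 2.49% and 18.8% (3 of 16), and repeated windows 86.1% and 25% (4 of 16). Mtf2 overlapped 92.5% and 6.25% (1 of 16). At a false discovery rate of at most 5%, only the Cdkn1a peak was left (100% WT only, 100% with Mtf2, 1 gene, 0 developmental factors, 0% proximal, island-like or repeated), and there was no Mtf2-null value. With the WT list cut to the 1331 best scores (ratio 1), 173 genes were WT only and 12 in both, 8 developmental factors had a WT peak, and 3.31% of WT summits were proximal, 73.9% repeated and 75.4% with Mtf2. Developmental factors with a Mtf2-null peak then stayed at 15, so the order of the genotypes in this class turned around.

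Requiring 50% of the peak for an overlap gave 56.6% of WT-only peaks with Mtf2. Allowing 1 kb between peaks left 99.5% of WT peaks WT only and 2.30% of Mtf2-null-only peaks with Mtf2. Windows of 1 kb gave 283 WT-only, 63 Mtf2-null-only and 9 shared genes (developmental factors 30 and 4), windows of 10 kb gave 1075, 419 and 71, and gene bodies gave 1241, 489 and 131. All annotated genes gave 1032 WT-only genes. A 2 kb proximal promoter held 8.52% and 8.26% of summits. Without repeated windows, a choice made on seeing the data, the ratio of the lists was 0.636, 99.2% of WT peaks were WT only, 11.7% of WT summits were proximal, 8.38% island-like and 18.2% of WT-only peaks had Mtf2.

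No paired analysis was possible because each genotype had 1 library and no value came from a test. For the same reason no library was left out. Depth, the depth of IgG and the share of unique tags differed between genotypes and cannot be told apart from genotype. Peak lists give no value where no peak was called.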

Other observations

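The WT-only CpG island-like windows formed a small set of their own. Of the 206, 108 (52.4%, 45.6 to 59.1) overlapped an H3K27me3 peak of WT CD71+Ter119+ cells and 63 (30.6%, 24.7 to 37.2) a Mtf2 peak, while 57 were in repeated sequence. Of the 31 Mtf2-null-only CpG island-like windows, 11 (35.5%, 21.1 to 53.1) overlapped an H3K27me3 peak of WT CD71+Ter119+ cells, 3 a Mtf2 peak, and none was repeated. One of them lay in an exon of Zfpm1, which encodes the Gata1 cofactor Fog1, 24.6 kb downstream of the Trhr2 start site, with 63 tags at 8.20-fold enrichment.

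Of the developmental transcription factor genes, 216 had an H3K27me3 peak in WT CD71+Ter119+ cells. At these, a WT CD71+Ter119-/lo peak was called in 53 (24.5%) and a Mtf2-null peak in 12 (5.56%), against 372 and 86 (3.36%) of all 2562 genes with a WT CD71+Ter119+ peak. All 8 factors called in both genotypes were among the 216, and 29 of all 39 genes called in both (74.4%) had such a peak.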
